A study of Mus musculus with 3 samples.

Results

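H3K4me1 regions that lie close together on the chromosome were examined in cytokine-treated mouse islets. The members were chosen by their spacing and width: on chromosomes 1 to 19, in the mm9 build, a dense run was 5 or more consecutive regions with every gap between neighbours under 5000 bp, and the regions of such runs that were at most 10000 bp wide were its members. The 934 runs held 5778 regions, of which 5351 were members, out of 65709 regions in the whole file and 65124 on these chromosomes. Members thus made up 8.22% of autosomal regions, a share fixed by the rule itself, and they covered 14251400 bp, or 10.3% of the autosomal sequence under H3K4me1. The remaining 427 regions of the runs were wider than 10000 bp.

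By the sample labels, the islets came from CD1 mice of 8 to 12 weeks, with no engineered allele given. The paper names the strain ICR and gives a narrower age range for the ChIP-seq. After 4 to 6 h of recovery they were cultured for 4 days in RPMI with TNFα at 0.16 ng/ml, IL-1β at 0.25 ng/ml and IFNγ at 1.6 ng/ml, a mixture used to imitate the inflamed islet of type 1 diabetes. Chromatin was precipitated with an Abcam antibody to H3K4me1, and DNA from several precipitations was pooled into the 1 library measured here. No untreated H3K4me1 library and neither of the 2 RNA-seq samples were analysed here, so no value below is a response to cytokines. Without replicates, shares are given with 95% exact binomial (Clopper-Pearson) intervals. These cover counting error only, and they are too narrow because the regions of a run share a locus. For some of the differences, the number of the 19 autosomes on which they held is given beside them; the others rest on these intervals alone.

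H3K4me1 is the monomethyl mark that MLL3 and MLL4 place on histone H3 at enhancers and on the flanks of active promoters. At many active CpG-rich promoters the centre carries the trimethyl form and the monomethyl form sits on either side. Enhancers bear binding sites for the factors of their cell type, which in the β-cell include NeuroD1, Pdx1, Nkx6-1, Mafa and Foxa proteins. Signals such as cytokines act through NF-κB, STAT, IRF and AP-1 factors. Whole islets hold α-, β- and δ-cells, with some endothelial, stromal and immune cells, and a region cannot be given to one of them from this library.

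The islet label was checked against marker genes by giving each region to the closest protein-coding TSS within 100 kb. At least 1 region was assigned to 32 of 33 islet transcription factor genes and 22 of 23 hormone and granule genes. Lists that are not particular to islets were as high, with 22 of 22 trithorax and polycomb genes, 29 of 29 NF-κB, IRF and STAT genes, 21 of 21 ER stress and apoptosis genes and 23 of 24 ribosomal protein genes, so a region at the gene does not single out islet genes. The share of all coding genes was 71.6% (15235 of 21281), and 7 of 19 leukocyte markers had a region. Of the endothelial and stromal markers, 15 of 20 had a region, and so did 15 of 20 acinar and duct markers.

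Sequences of 8 members are shown to make the runs concrete. Each is a member of 200 bp in full (H2-D1, Chrm3) or the middle 200 bp of a wider one, read from the mm9 genome on the plus strand and outside annotated UTRs. They were picked after their letters were seen, because each holds at least 2 of the motifs searched. Capitals mark the matches: AP-1 (TGANTCA), the E-box bound by NeuroD1 (CAGATG or CATCTG), forkhead (TGTTTAC or GTAAACA), NF-κB (GGAANTTCC), STAT (TTCNNNGAA), the interferon-response core (GAAANNGAA, or its reverse complement) and homeodomain (TAATTA), searched on both strands.
Cacna1d, chr14:31112601-31112800, plus strand: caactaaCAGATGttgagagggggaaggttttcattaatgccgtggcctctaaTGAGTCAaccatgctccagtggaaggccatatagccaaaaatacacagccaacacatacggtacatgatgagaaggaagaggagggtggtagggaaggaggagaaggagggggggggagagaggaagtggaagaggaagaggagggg
Slc24a2, chr4:86664001-86664200, plus strand: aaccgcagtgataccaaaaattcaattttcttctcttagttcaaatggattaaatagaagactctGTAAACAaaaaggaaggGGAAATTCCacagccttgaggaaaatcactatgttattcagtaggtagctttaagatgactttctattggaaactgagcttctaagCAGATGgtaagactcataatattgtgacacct
Scg3, chr9:75539501-75539700, plus strand: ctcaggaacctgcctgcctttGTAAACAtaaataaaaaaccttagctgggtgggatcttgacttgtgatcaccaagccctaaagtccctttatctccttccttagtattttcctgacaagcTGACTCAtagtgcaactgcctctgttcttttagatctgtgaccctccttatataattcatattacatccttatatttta
Rora, chr9:68859001-68859200, plus strand: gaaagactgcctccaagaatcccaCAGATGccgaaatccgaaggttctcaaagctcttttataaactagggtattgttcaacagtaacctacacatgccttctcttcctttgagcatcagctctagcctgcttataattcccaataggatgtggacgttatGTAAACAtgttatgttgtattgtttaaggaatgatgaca
Ern1, chr11:106311801-106312000, plus strand: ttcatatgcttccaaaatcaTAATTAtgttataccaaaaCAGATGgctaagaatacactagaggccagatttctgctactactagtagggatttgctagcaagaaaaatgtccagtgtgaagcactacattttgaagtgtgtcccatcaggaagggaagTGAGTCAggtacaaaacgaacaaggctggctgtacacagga
Cd274 run, chr19:29429801-29430000, plus strand: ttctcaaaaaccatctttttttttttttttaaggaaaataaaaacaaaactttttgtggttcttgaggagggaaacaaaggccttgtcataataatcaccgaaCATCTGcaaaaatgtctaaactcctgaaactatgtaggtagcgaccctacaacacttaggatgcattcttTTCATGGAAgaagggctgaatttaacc
H2-D1, chr17:35391001-35391200, plus strand: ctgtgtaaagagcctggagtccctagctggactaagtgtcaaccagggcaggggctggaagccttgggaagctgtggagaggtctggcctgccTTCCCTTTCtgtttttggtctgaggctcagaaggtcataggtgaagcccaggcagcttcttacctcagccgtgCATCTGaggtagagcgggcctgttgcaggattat
Chrm3, chr13:10341001-10341200, plus strand: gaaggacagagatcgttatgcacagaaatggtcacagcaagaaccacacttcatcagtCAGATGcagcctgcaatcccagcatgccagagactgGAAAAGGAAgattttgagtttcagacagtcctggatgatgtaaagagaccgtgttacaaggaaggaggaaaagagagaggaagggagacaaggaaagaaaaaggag

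The Cacna1d and Slc24a2 sequences lie in introns of the genes for a voltage-gated calcium channel and a sodium-calcium-potassium exchanger. Scg3 encodes a granule protein, and its sequence lies outside coding genes, 7798 bp from the nearest TSS. Rora is a nuclear receptor gene and Ern1 encodes the ER stress sensor IRE1. Cd274 encodes PD-L1, but the sequence printed from its run lies inside the neighbouring gene 5033414D02Rik, 3546 bp from that gene's TSS. H2-D1 encodes a class I MHC heavy chain, and the sequence shown is a promoter region by distance, 117 bp from the nearest TSS of any gene, but lies outside coding genes and 8574 bp from the closest coding TSS. The sequence named for Chrm3, the closest coding gene, comes from a run that lay 458472 bp from any coding TSS, the greatest such distance of all runs. In each of the 8, the middle 32 bp occurred at 1 place in the genome.

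Most runs were short. There were 445 runs of 5 regions, 217 of 6, 123 of 7, 56 of 8 and 39 of 9, and 54 runs (5.78%) held 10 or more. The median run spanned 30100 bp (quartiles 22400 and 41750; range 11000 to 173400) and 60.7% of it lay under a region (range 19.6% to 92.0%). The gaps in the runs had a median of 2400 bp, which was also the median gap in chains of 2 to 4 regions. In 641 of the 934 runs no region exceeded 10000 bp. Near the edges of the rule, 138 gaps in runs measured 4800 bp while 618 autosomal gaps measured 5000 bp, and 15 regions in runs were 10000 bp wide while 13 were 10200 bp wide. Chains of 4, just outside, had a median span of 16800 bp with 57.7% covered, against 23400 bp and 59.3% for runs of 5.

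The rule used the gaps and a limit on width, and at a given spacing a wider region leaves smaller gaps, so the widths are a description of what was selected. The median width of members was 2000 bp (quartiles 1000 and 3800), compared with 1200 bp (600 and 2200) for the 58451 other autosomal regions of at most 10000 bp. Regions of 5000 bp or more made up 16.8% of members (15.8 to 17.9) and 6.03% of other regions (5.84 to 6.22). Regions of a single bin were 6.69% of members (6.04 to 7.39) and 2.68% (2.55 to 2.81) of other regions, and regions of at most 400 bp as a whole were 13.1% and 15.4%. Since the rule tied regions by their gaps, a wide domain interrupted by short breaks and a group of separate elements both entered as runs. Of the gaps, 12.7% were 1000 bp or less. Members at the end of a run had a median width of 1800 bp and those inside it 2000 bp.

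**Figure D1:**
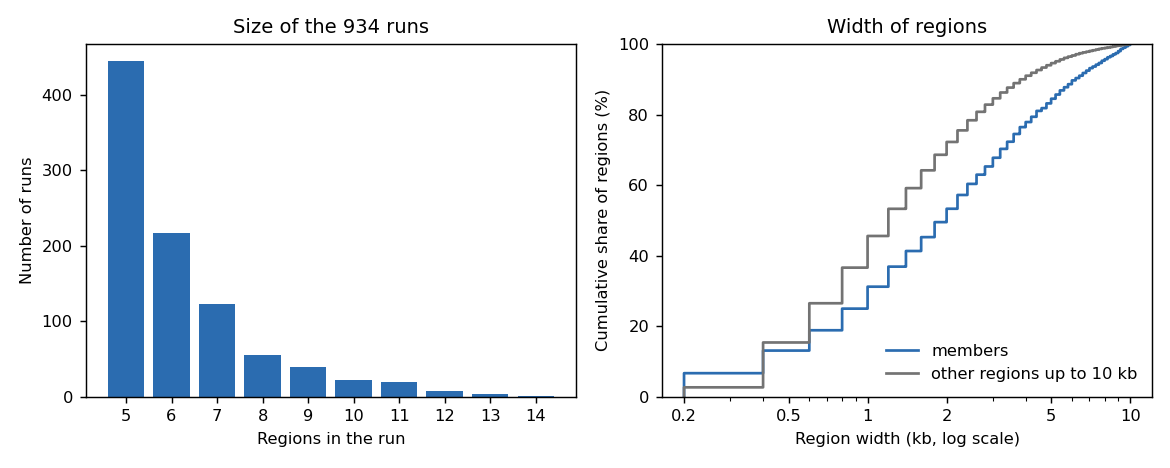
Left, number of runs (y axis) by the number of regions they hold (x axis). Right, cumulative share of regions in percent (y axis) by width in kb on a log scale (x axis) for members and for other autosomal regions up to 10 kb; the curve of members starts higher at the single 200 bp bin (6.69% against 2.68%) and lies lower from 400 bp upward, at a median of 2000 bp against 1200 bp.

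The run with the most regions lay at Tns3, which encodes an actin-binding protein of cell adhesions. Its 14 regions spanned 99000 bp (chr11:8466401-8565400) with 64.2% covered, and 12 of them were members. Runs of 13 regions lay at Anks1, an adaptor of Eph receptor signalling (80600 bp), at Frs2, the docking protein of FGF receptors (62200 bp), within Slc24a2 (57600 bp), and outside coding genes on chromosome 14, where Gm6158 was the closest (78800 bp). These 5 were not alike in structure. In the Slc24a2 run 38.2% was covered, the widest region was 3000 bp and all 13 were members, whereas in the Anks1 run 66.5% was covered and the widest reached 8200 bp. Runs of 12 regions included those at Mtap7, Daam1, Pcnx, Prkca, Mtss1 and Cacna1d.

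Span and density set apart other loci. The longest run, at AB041803, spanned 173400 bp with 10 regions, of which 4 were wider than 10000 bp and the widest measured 83000 bp. It was followed by Fmnl2, a formin (150600 bp), Agap1 (150400 bp) and the calcium channel gene Cacna1c (146000 bp). The highest covered share, 92.0%, was found at Sfi1 and Eif4enif1, where 2 regions were wider than 10000 bp and the widest measured 55600 bp. That run begins at chr11:3025401, near the start of the assembled chromosome. Repeated sequence in its wide regions was not examined. The lowest, 19.6%, belonged to a run in Med13l, a subunit of Mediator, where 5 regions of 200 to 800 bp spanned 11200 bp. Among the genes, Maml3, a coactivator of Notch signalling, had the most members assigned (25, in 5 runs over the gene). It was followed by Rere, a nuclear receptor corepressor (24), the receptor gene Igf1r (22), Jmjd1c of the histone demethylase family (20) and Slc24a2 (20). Anks1, Epb4.1l3 and Snd1 had 18 each, and Msi2, an RNA-binding protein, and Phactr1, an actin regulator, had 17 each. All 10 of these genes had a TSS inside a run and were 133.2 to 460 kb long. Members were assigned to 1130 of 21281 autosomal coding genes, and 75 genes had 10 or more.

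Members were more often at 2 to 20 kb from a TSS than other regions, and less often at promoters or over 100 kb away. They were not the closest to start sites: the median distance was 9922 bp for members (quartiles 3120.5 and 25439.5), 11732 bp (2136 and 39147.5) for other regions and 7417 bp (1770 and 25978.5) for regions in chains of 2 to 4. Classed by the distance of the midpoint from the nearest TSS, 18.1% (17.1 to 19.2) were promoter regions (to 2 kb), compared with 24.3% (23.9 to 24.6) of other regions. Proximal enhancers (2 to 20 kb) made up 50.8% (49.5 to 52.2) of members and 36.8% (36.4 to 37.2) of others. Their share was higher in members than in others on 19 of 19 chromosomes. The promoter share was lower in members on all 19. Measured from the nearest edge of a region, the promoter shares were 27.3% and 29.3%. Distal enhancers (20 to 100 kb) made up 28.4% of members and 29.3% of others, with overlapping intervals, and were more frequent in members on 9 of 19 chromosomes. Intergenic regions (over 100 kb) were 2.62% (2.21 to 3.08) of members and 9.63% (9.39 to 9.87) of others, lower on all 19. These traits were not particular to members. Regions over 10000 bp outside runs were 64.0% (60.8 to 67.2) proximal, above members. They were 15.6% (13.3 to 18.2) promoter and 2.01% (1.20 to 3.16) intergenic, with intervals that overlapped those of members.

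Most members were intronic. The midpoint lay in a protein-coding gene for 79.1% (78.0 to 80.2) of members and 59.9% (59.5 to 60.3) of other regions. In an exon it lay for 3.91% (3.40 to 4.46) and 7.57% (7.36 to 7.79). Both differences held on 19 of 19 chromosomes. Of the members over 2 kb from a TSS and in an intron of a gene's longest transcript, 52.0% (50.3 to 53.6; 1806 of 3476) lay in its first intron. The same share was 34.6% (34.0 to 35.2) in other regions, and first introns make up 26.9% of intron sequence. With promoter regions included the first-intron share was 52.8% in members and 42.6% in others, higher in members on 18 of 19 chromosomes. Chromosome 16 was the exception, with 40.0% against 41.1%.

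Among regions of at most 10000 bp, the shares differed with the length of the chain. The gene-body share was 55.3% in single regions, 65.6% in chains of 2 to 4 and 79.1% in members, and the first-intron share over 2 kb from a TSS was 26.8%, 42.3% and 52.0%. None of the 3 intervals overlapped in either measure. Chain length was not the only feature that went with these shares: regions over 10000 bp outside runs had 84.02% (752 of 895; 81.5 to 86.4) in a coding gene and 60.8% (56.9 to 64.7) in the first intron, above members in both. Promoter regions did not follow the order of chain lengths: they were 22.2% of single regions, 26.9% of regions in chains of 2 to 4 and 18.1% of members. The regions over 10000 bp within runs stood at 92.5% (89.6 to 94.8) and 59.0% (53.6 to 64.2).

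**Figure D2:**
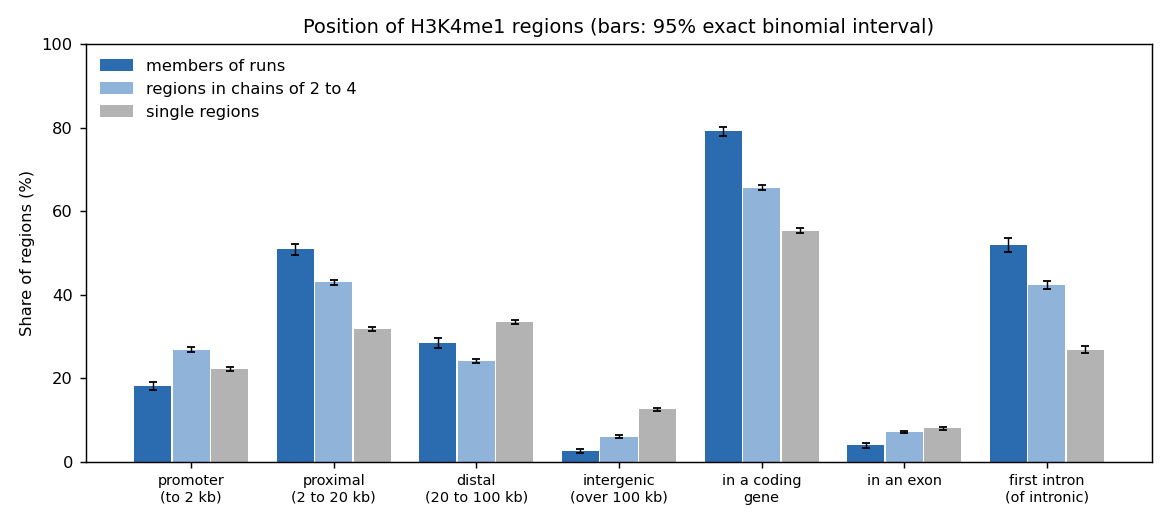
Share of regions in percent (y axis) by distance class, by place in a coding gene or exon, and in the first intron among intronic regions over 2 kb from a TSS (x axis), for members of runs, regions in chains of 2 to 4 and single regions; error bars are 95% exact binomial intervals. The gene-body share rises from 55.3% to 79.1% and the first-intron share from 26.8% to 52.0%, while the intergenic share falls from 12.6% to 2.62%.

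Seen as whole runs, 615 of 934 (65.8%) spanned a coding TSS, 255 (27.3%) lay inside a coding gene without reaching one, 16 crossed a gene end only and 48 lay outside coding genes. Of those 255 runs, 178 (69.8%) had their middle nearer to the start of the gene than to its end, and their genes had a median length of 204238 bp. Genes with a TSS in a run were longer than others: their median length was 40028 bp (n = 850), against 14893 bp for coding genes that no run overlapped (n = 20190). By length, a TSS lay in a run for 2.65% (2.37 to 2.96) of genes up to 20 kb, 3.41% of those of 20 to 50 kb, 7.90% of those of 50 to 100 kb, 9.19% (7.71 to 10.8) of those of 100 to 200 kb and 6.83% (5.27 to 8.67) of longer ones. The last 2 intervals overlapped.

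Runs around a TSS reached farther downstream than upstream, by an amount that depended on the start site used. In the 475 runs that held start sites of 1 coding gene, the span downstream of the most upstream of these sites had a median of 24358 bp (quartiles 15968 and 38112) and the span upstream 5017 bp (1329 and 11731). The downstream arm was the longer in 388 (81.7%; 77.9 to 85.1), and 363 runs had more regions downstream against 93 with more upstream. Where a gene has several start sites in the run, measuring from the most upstream one lengthens the downstream arm. From the most downstream site the downstream arm was the longer in 287 of 475 (60.4%; 55.9 to 64.8), and in the 170 runs with 1 start-site position in 130 (76.5%; 69.4 to 82.6). Measured from the most upstream site, Tns3 is an extreme case, with 862 bp upstream and 98137 bp downstream of it. Cacna1d (1128 and 70071 bp), Frs2 (2470 and 59729 bp) and St18, a zinc-finger factor gene (1531 and 44868 bp), had the same shape. Scg3 was closer to even, with 14197 and 19002 bp. A region's direction from its closest coding TSS showed a smaller difference: 63.0% (61.6 to 64.5) of members at 2 to 100 kb lay downstream, against 57.2% (56.6 to 57.7) of other regions. Among all regions within 100 kb the intervals overlapped, at 59.3% (57.9 to 60.7) and 58.2% (57.8 to 58.7), and regions over 10000 bp outside runs stood above members at 2 to 100 kb, at 70.3% (66.8 to 73.6).

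**Figure D3:**
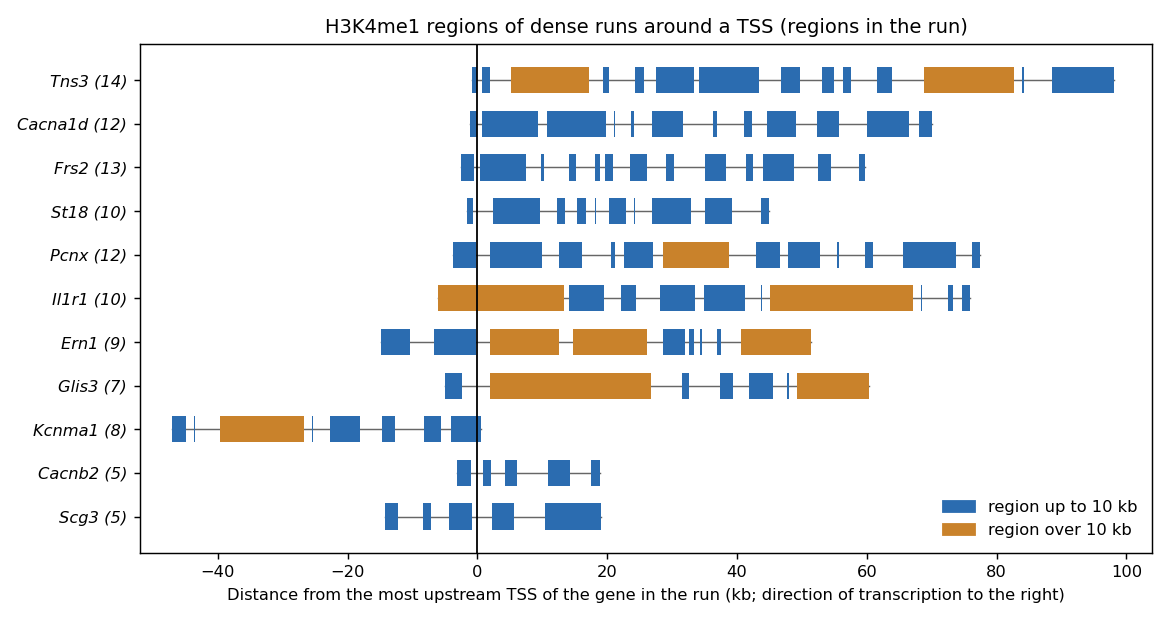
Regions of 11 runs drawn to scale by distance in kb from the most upstream TSS of the named gene within the run (x axis, transcription to the right), one run per row with its number of regions; blue bars are regions up to 10 kb, orange bars wider regions, thin lines the gaps. In Tns3, Cacna1d, Frs2 and St18 nearly the whole run follows the TSS, while the Kcnma1 run precedes it and the Scg3 run extends both ways.

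Start sites inside a run lay under a region less often than the sequence around them did. Of 2693 distinct coding TSS positions inside spans, 48.7% (46.8 to 50.6) lay under a region, while 64.5% of the spans' sequence was covered. Elsewhere on the autosomes 31.98% of coding TSS positions lay under a region. Counting only the most upstream TSS of each gene, 319 of 748 inside spans (42.6%; 39.1 to 46.3) lay under a region and 429 in a gap. The 561 gaps that held a coding TSS were about as wide as the other gaps (median 2200 against 2400 bp), but their GC content was 55.0% against 44.1% and their observed-to-expected CpG ratio 0.661 against 0.192.

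The start sites in gaps were also richer in CpG than those under a region. In the 200 bp centred on the most upstream TSS, the median CpG count was 21 (quartiles 14 and 27) for the 429 in gaps and 16 (7 and 23) for the 319 under a region. At least 10 CpG were present in 86.2% (82.6 to 89.4) and 69.0% (63.6 to 74.0). The median was higher for the gaps on 18 of 19 chromosomes. Outside runs the order was the opposite: 74.5% (73.4 to 75.5) of the 6614 start sites under a region and 39.4% (38.6 to 40.2) of the 14053 not under a region had 10 or more. The 14053 include any such site, whether or not a region lay nearby, and are not like the gaps. Start sites in gaps of shorter chains were not examined, so the opposite order cannot be called particular to runs. The 150 bp before a TSS in a gap of a run are shown for 4 genes, Cacna1d, Pcnx and Tns3 with many CpG and Scg3 with fewer. The TSS used here is the most upstream of the gene's start sites inside the run. At Cacna1d, on the minus strand, it is 31166672, an internal start site, while the gene's annotated start is at 31304342. The Cacna1d site is therefore not one of the 429. These 4 sequences do not span the whole range of start sites in gaps: Scg3 has 10 CpG in its 150 bp, and Cacnb2 has 2. The Cacnb2 site (14745719, plus strand) is internal too, as the gene starts at 14525933. Of the 150 bp, 88 at Tns3 and 22 at Cacna1d reach past the gap and lie under the next region. Capitals mark CG, and each is written in the direction of transcription.
Cacna1d upstream, chr14:31166673-31166822, minus strand: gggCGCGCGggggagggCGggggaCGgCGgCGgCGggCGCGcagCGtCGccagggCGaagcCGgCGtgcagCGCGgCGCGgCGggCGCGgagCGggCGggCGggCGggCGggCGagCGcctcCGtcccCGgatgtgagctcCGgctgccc
Pcnx upstream, chr12:82960867-82961016, plus strand: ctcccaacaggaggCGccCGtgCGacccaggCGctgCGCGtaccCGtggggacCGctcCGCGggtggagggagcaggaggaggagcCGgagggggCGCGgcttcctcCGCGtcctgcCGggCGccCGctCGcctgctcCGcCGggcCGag
Tns3 upstream, chr11:8564539-8564688, minus strand: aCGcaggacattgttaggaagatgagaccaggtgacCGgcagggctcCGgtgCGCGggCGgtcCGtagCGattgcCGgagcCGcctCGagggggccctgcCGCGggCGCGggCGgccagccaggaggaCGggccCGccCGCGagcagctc
Scg3 upstream, chr9:75531804-75531953, minus strand: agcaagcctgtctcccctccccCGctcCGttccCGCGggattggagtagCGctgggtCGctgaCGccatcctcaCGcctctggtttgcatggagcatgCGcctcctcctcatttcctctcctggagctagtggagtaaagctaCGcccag

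These hold 32 CpG in Cacna1d, 22 in Pcnx and 20 in Tns3, against 10 in Scg3. The gap at the Cacna1d TSS measured 800 bp, as did that at Tns3, whereas the gaps at Pcnx and Scg3 measured 2200 and 3000 bp. Members that did cover a coding TSS (479, or 8.95%) had a median width of 3400 bp, against 1800 bp for the other members.

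**Figure D4:**
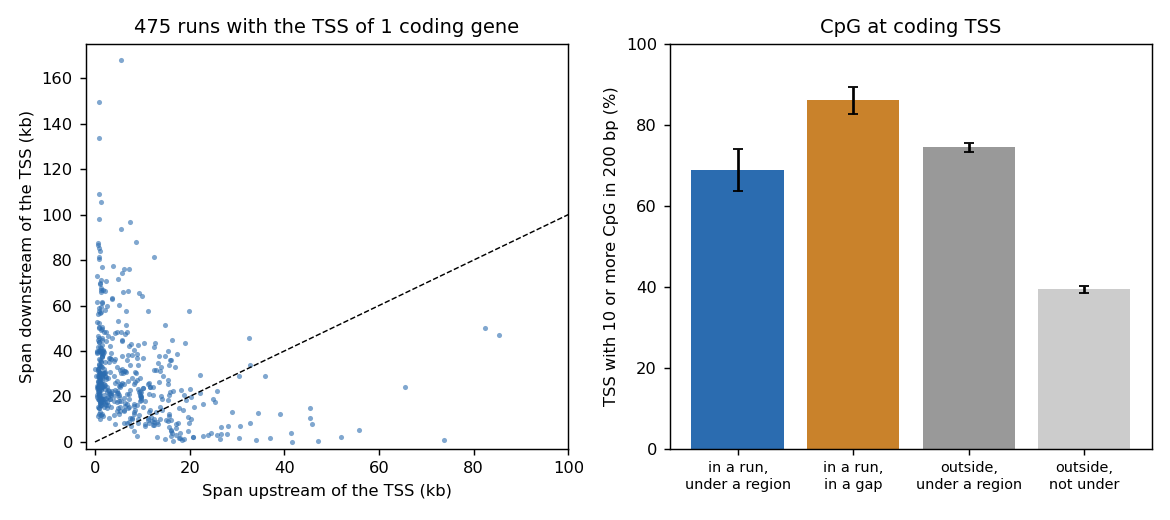
Left, length in kb of the run downstream (y axis) and upstream (x axis) of the most upstream TSS for each of 475 runs with start sites of 1 coding gene; the dashed line marks equal lengths, and 81.7% of points lie above it. Right, share in percent of coding genes with 10 or more CpG in the 200 bp around the TSS (y axis) by position (x axis), with 95% exact binomial intervals; inside runs it is 86.2% in gaps and 69.0% under a region.

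Across all autosomal coding genes, 3.99% (850 of 21281) had a TSS inside a run and 5.13% (1091) had the gene body overlapped by one. The gene lists below are read against the first value. In every list the median gene had no member assigned.

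Genes for glucose sensing and membrane excitability stood at 6 of 20 (30.0%; 11.9 to 54.3). Cacna1d, an L-type channel subunit, had 12 regions over 71200 bp with 59.3% covered, of 200 to 9200 bp, and every one was a member. Kcnma1, a large-conductance potassium channel, had 8 regions over 47600 bp, with the gene at one end of the run and 15 members assigned to it in all. The calcium channel subunit gene Cacnb2 (22000 bp), the cation channel gene Trpm5 (34800 bp) and the glucagon receptor gene Gcgr (25000 bp) were also among them. The share of all coding genes of the same lengths was 5.16%. The list's count depended on the rule for runs. It was 1 with gaps under 2500 bp, 13 with gaps under 10000 bp and 2 with at least 8 regions. The shares of all coding genes were then 0.498%, 13.8% and 0.648%.

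Transcription factor genes of the islet stood at 2 of 33 (6.06%; 0.743 to 20.2), Glis3 (7 regions, 65400 bp) and St18 (10 regions, 46400 bp). The share of all coding genes of the same lengths was 4.55%. Genes of this list had a median of 6 regions assigned. Pdx1, the master factor of pancreas development, had 4 regions and Mafa, an activator of insulin transcription, had 7, with no member in either. Hormone and granule genes stood at 2 of 23: Scg3 (5 regions, 33200 bp) and Cpe, the prohormone-processing carboxypeptidase (8 regions, 88200 bp). Exocytosis genes stood at 2 of 14, among them the calcium sensor gene Syt7. The intervals of these 3 lists include 3.99%.

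MHC class I and interferon effector genes stood at 8 of 27 (29.6%; 13.8 to 50.2), but the 8 genes lay in 5 runs. Tap1 and Tap2, the peptide transporter, and Psmb8 and Psmb9 of the immunoproteasome shared a single run of 5 regions over 36200 bp on chromosome 17, with 74.6% covered. H2-D1 lay in a run of 9 regions (chr17:35377001-35413600), all of them members, together with Ddx39b. Tapbp, which loads peptide on class I molecules, shared 6 regions over 23800 bp with Daxx, Rgl2 and Zbtb22. Cd274 had 5 regions over 30400 bp and Igtp, an interferon-induced GTPase, 7 over 33400 bp. The count rested on narrow regions: with regions under 400 bp left out before runs were built, the list stood at 2 of 27. The share of all coding genes of the same lengths was 2.79%.

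NF-κB, IRF and STAT genes stood at 6 of 29 (20.7%; 7.99 to 39.7), among them Bcl3, which encodes an atypical IκB protein, Irf2, Irf9, Stat5b and Socs3, the feedback inhibitor of cytokine signalling. The longest of these runs was that at Bcl3, with 62800 bp and 75.8% covered. Of the receptors for the applied cytokines, 1 of 13 lay in a run, Il1r1, the receptor of IL-1β, with 10 regions over 82000 bp (chr1:40275801-40357800; 77.3% covered). None of 19 chemokine and cytokine genes did, with an upper limit of 17.6%, although 16 of them had a region assigned. The 15 AP-1 genes were also without a TSS in a run (upper limit 21.8%).

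The counts of the remaining lists were 0 or 1, and each interval included the background. ER stress and apoptosis genes stood at 1 of 21 (Ern1, 9 regions over 66200 bp), genes of trithorax and polycomb complexes at 1 of 22 (Ezh1, a histone H3K27 methyltransferase, 5 regions over 18400 bp), ribosomal protein genes at 1 of 24 (Rpl30), and neuronal and muscle genes at 1 of 25 (Mbp). Markers of other cells of the pancreas stood at 1 of 20 for acinar and duct cells (0.127 to 24.9%; Krt7, 11 regions over 78400 bp), 0 of 19 for leukocytes (upper limit 17.6%) and 0 of 20 for endothelial and stromal cells (upper limit 16.8%). None of 39 Hox genes lay in a run, with an upper limit of 9.03%. Hox genes lie in clusters and are not independent, so this limit is too low.

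**Figure D5:**
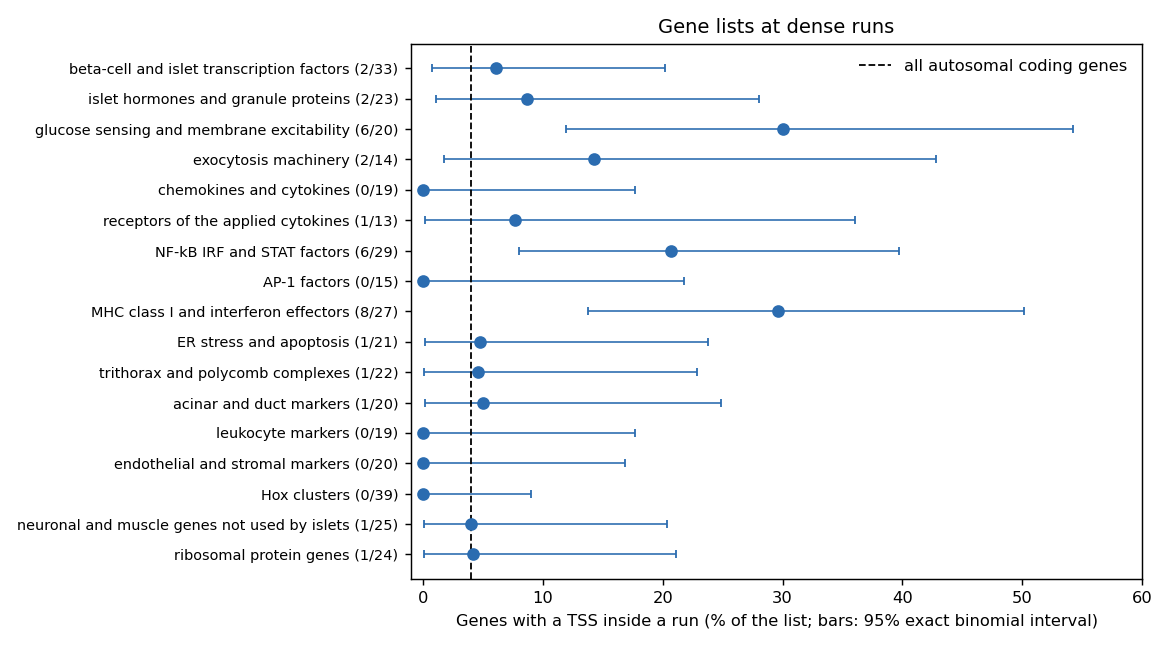
Share of each list's autosomal coding genes with a TSS inside a run, in percent (x axis), for 17 gene lists (y axis, with counts); bars are 95% exact binomial intervals and the dashed line is the 3.99% of all autosomal coding genes. The intervals of the excitability, MHC and interferon, and NF-κB, IRF and STAT lists lie above the line.

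The DNA of members was compared with that of other regions and of the gaps between members in the middle 200 bp, for windows over 2 kb from a TSS. The GC content of whole members had a median of 45.0%, against 45.1% in other regions and 44.0% in gaps without a coding TSS. Both strands were searched for 15 motifs; a match describes the letters and shows no binding. AP-1 letters were in 7.49% (6.73 to 8.31) of members, 8.62% (8.36 to 8.89) of other regions, 4.99% (4.33 to 5.71) of gaps and 6.17% (5.85 to 6.49) of windows placed every 100 kb along the genome. The share was above that of the gaps on 16 of 19 chromosomes, and above that of other regions on 2. Forkhead letters ran parallel, at 3.63% (3.10 to 4.23), 4.70% (4.51 to 4.91), 2.43% (1.98 to 2.96) and 3.23% (3.01 to 3.48), and members exceeded the gaps on 16 chromosomes and other regions on 5.

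Of the other motifs, the E-box was in 16.3% (15.2 to 17.4) of members, 17.7% (17.3 to 18.1) of other regions and 14.1% (13.0 to 15.2) of gaps, and in 14.6% of genome windows. Its share in members was above that of other regions on 8 of 19 chromosomes and above that of the gaps on 14. The NF-κB letters were rare, with 12 of 4380 members (0.274%; 0.142 to 0.478), 0.391% of other regions and 0.401% of gaps, and these intervals overlapped. The same was true of STAT letters (6.58%, 6.77% and 5.99%; 7.31% of genome windows). Homeodomain letters were in 6.69% of members, 7.43% of other regions, 5.41% of gaps and 7.40% (7.06 to 7.76) of genome windows. Members were above other regions on 6 of 19 chromosomes and above gaps on 15. The interferon-response core was in 6.89% (6.16 to 7.69) of members, 7.47% (7.23 to 7.72) of other regions, 5.89% (5.18 to 6.66) of gaps and 8.30% (7.93 to 8.67) of genome windows. The other 8 motifs were CRE (TGACGTCA), the Myc E-box (CACGTG), Maf (TGCTGAC), RFX (GTTGCCA), HNF1 (GTTAATNAT), REST (TTCAGCACC), CTCF (CCACNAGNG) and ETS (CCGGAAGT) letters. Their shares in members ran from 0.114% for CRE and ETS to 3.33% for Maf, and for each of them the interval overlapped that of other regions.

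Because members were wider, the shares were also set side by side in 5 width classes. For AP-1 the intervals overlapped in every class, and members were below other regions in 3 of 5: 9.67% against 8.95% at 200 to 600 bp, 7.97% against 9.59% at 800 to 1400 bp, 6.54% against 8.10% at 1600 to 2600 bp, 6.75% against 7.09% at 2800 to 4800 bp and 6.61% against 6.50% at 5000 to 10000 bp. For forkhead letters the intervals overlapped in every class too, and members were below other regions in 4 of 5, as at 200 to 600 bp with 3.63% (2.46 to 5.14) and 5.05% (4.67 to 5.44). For the E-box they were apart only at 200 to 600 bp, with 15.2% (12.9 to 17.87) in members and 18.6% (17.90 to 19.3) in others.

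Reads can be lost or misplaced where sequence repeats. The middle 32 bp was unique in the genome for 96.7% (96.1 to 97.1) of members, 97.8% (97.7 to 97.9) of other regions, 91.8% (90.9 to 92.6) of gaps without a coding TSS and 84.7% (84.3 to 85.2) of windows placed every 100 kb. The part of unreadable sequence in the gaps was not tested. Among 179 members with a repeated word, 153 runs had at least 1, and 3 runs had 3 or more. The clearest was a run at chr9:3015201-3038400, near the start of the assembled chromosome, where the words of all 5 members occurred at 9 to 22 places.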

How the data were processed

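The authors aligned pooled H3K4me1 reads to mm9 (Bowtie2 2.2.1 per the submitters' notes) and called enriched regions with ChromHMM; its settings are not given in the sources used here. The deposited file lists the chromosome, start and end of each region on a grid of 200 bp, with no read count, height or other score, so the depth behind a region is unknown. These positions were used as deposited. Members, gene lists and motifs were chosen with earlier results of these data known.

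Neighbours were joined with Python 3.11.15 and pandas 2.3.3, and the steps were tested on simulated data with planted runs. Distances run from the midpoint to the nearest TSS of GENCODE M1, which is annotated on mm9. Genes received regions whose closest protein-coding TSS lay within 100 kb. Motifs were read from the NCBIM37 genome. The genes named are those at the 10 runs with most regions, the 10 with most members, the 5 longest, 5 most covered and 5 most remote runs, and up to 4 genes per list. Med13l, Pdx1, Mafa, the genes that complete a list's count and the sequences shown were chosen after their values were seen. Other rules for gap, run size, width and TSS were tried. Values of some genes in these lists are not reported here.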

Additional observations from a re-analysis of the deposited data

Results flagged for a closer look

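The rule covers chromosomes 1 to 19, and 1 dense run lay outside them, in data that no comparison used. On chromosome X, 5 regions between 34353801 and 34369000 (mm9) at C330007P06Rik met the same spacing, all 5 were at most 10000 bp wide, and together they covered 5600 bp. They are 5 of the 526 regions on that chromosome (0.951%; 95% exact binomial interval 0.309 to 2.20), against 8.87% (8.65 to 9.09) of autosomal regions in runs. No run was found among the 59 regions on unplaced and mitochondrial sequence, which allows a share of up to 6.06%.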

How the results depend on the processing

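Of 79 values recomputed under other rules, 35 stayed within their 95% exact binomial interval (shares) or within 1.5 times (counts) and 44 moved. Beside the matching share in other regions, members stayed on the same side in 34 of 38 cases, and the 4 that changed side all concern distal enhancers. Counts follow the rule: gaps under 2500 bp gave 139 runs and 694 members, gaps under 10000 bp 2402 and 16456, and runs of at least 8 regions 149 and 1241. In these 3 settings proximal enhancers were 54.2%, 49.1% and 43.9%, distal 25.4%, 26.5% and 39.6%, members in a coding gene 83.9%, 72.9% and 82.5%, and coding genes with a TSS in a run 0.498%, 13.8% and 0.648%. The excitability list held 1, 13 and 2 genes. Gaps under 2500 bp gave 1 MHC and interferon gene and 88.5% of runs reaching farther downstream, and runs of at least 8 regions gave 1 and 85.2%. With gaps under 10000 bp promoters were 21.0% and intergenic regions 3.47%, and with at least 8 regions 13.2% and 3.22%. Leaving out regions under 400 bp gave 3.36% of coding genes and 2 MHC and interferon genes. Merging over gaps up to 1000 bp gave 16.7% promoter, 30.3% distal and 2.95% of coding genes. From the nearest edge, promoters were 27.3% (other regions 29.3%), proximal 43.1% and distal 27.1%. From coding TSS only, these were 16.3%, 47.2% and 31.99%, with 4.54% intergenic. Gene-body overlap raised coding genes to 5.13%. With arms measured from the most downstream start site, 60.4% of runs reached farther downstream, and 76.5% in runs with 1 start-site position; both were chosen after seeing the data. Counting regions over 10 kb as members moved none of its values beyond these limits.

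No paired analysis was possible because the H3K4me1 library is a single pooled sample with no replicate. The file gives no read counts, so narrow regions and gaps cannot be weighed by depth. Mixed cell types and the pooled precipitations could not be separated, and no untreated H3K4me1 library was analysed here.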
